A study of Homo sapiens with 12 samples.

Results

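The miR-17-92 cluster is a group of 6 miRNA hairpins cut from 1 primary transcript, that of the host gene MIR17HG on chromosome 13. Its members were taken as every mature arm of miR-17, miR-18a, miR-19a, miR-19b, miR-20a and miR-92a that the small RNA tables list, including the arms named for the miR-19b-1 and miR-92a-1 hairpins. This gave 12 arms of the 314 mature miRNAs found in either table, and all 12 were listed in both. The rule uses names and no measured value.

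The cells were Mono Mac 6 (MM6), a human monocytic cell line, either wild type (WT) or 5LOΔ (KO), in which CRISPR/Cas9 delivered by lentivirus disrupted ALOX5, the gene for 5-lipoxygenase (5-LO), the first enzyme of leukotriene synthesis. All 12 libraries came from cells differentiated with TGF-β at 1 ng/mL and calcitriol at 50 nM for 72 h. The 4 groups of 3 libraries were WT, KO, WT stimulated with LPS at 1 µg/mL for 6 h, and KO with the same LPS stimulus. The study used KO clones 3 and 15, and the labels do not say which clone gave which library, nor that a WT library came from a single-cell clone, so a difference between genotypes cannot be told apart from a difference between clones and the parental line. ALOX5 mRNA was not analysed here.

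In a polycistronic miRNA transcript, Drosha and its partner cut each hairpin out in the nucleus, Dicer removes the loop in the cytoplasm, and usually 1 of the arms is kept by an Argonaute protein as the guide. Bases 2 to 8 of the guide, the seed, pair with target mRNAs. The transcription factors MYC and E2F drive MIR17HG, and the cluster is known for promoting proliferation and survival of blood cells, with the proapoptotic protein BIM among its targets and lower expression in maturing monocytes. The comparison of genotypes asks whether loss of 5-LO, a protein reported to bind Dicer, is accompanied by altered levels of these miRNAs, and the LPS groups ask whether that also holds in stimulated cells.

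The hairpin sequences of RefSeq matched the GRCh37 genome (hg19, the build named for the files) at 1 place each. In order along the plus strand of chromosome 13 they were MIR17 (92002859 to 92002942), MIR18A (92003005 to 92003075), MIR19A (92003145 to 92003226), MIR20A (92003319 to 92003389), MIR19B1 (92003446 to 92003532) and MIR92A1 (92003568 to 92003645). They spanned 787 bases, with gaps of 62, 69, 92, 56 and 35 bases between neighbours. MIR17HG is a long noncoding RNA gene from 91999940 to 92049846 with 16 annotated transcripts. The first 5 hairpins lay in an exon of 3 of these transcripts and in an intron of 8, and MIR92A1 lay in an exon of 5 and in an intron of 8.

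The mature sequences show which arms share a seed. The 12 arms carry 9 different seeds, 3 of them shared by 2 arms each. All 12 were matched by name in RefSeq, and each is given 5′ to 3′ in genomic order with the seed in capitals.
miR-17-5p: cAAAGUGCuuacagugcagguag
miR-17-3p: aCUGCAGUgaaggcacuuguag
miR-18a-5p: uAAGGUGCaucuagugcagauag
miR-18a-3p: aCUGCCCUaagugcuccuucugg
miR-19a-5p: aGUUUUGCauaguugcacuaca
miR-19a-3p: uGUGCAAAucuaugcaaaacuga
miR-20a-5p: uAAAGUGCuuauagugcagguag
miR-20a-3p: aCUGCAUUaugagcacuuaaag
miR-19b-1-5p: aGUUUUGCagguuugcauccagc
miR-19b-3p: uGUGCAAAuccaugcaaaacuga
miR-92a-1-5p: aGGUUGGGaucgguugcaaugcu
miR-92a-3p: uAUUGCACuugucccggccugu
miR-17-5p and miR-20a-5p share the seed AAAGUGC and differ at 2 of 23 positions, C1U and C12U, counted from the 5′ end with the miR-17-5p base first. miR-19a-3p and miR-19b-3p share the seed GUGCAAA and differ at 1 position, U11C, with the miR-19a-3p base first. The seed of miR-18a-5p, AAGGUGC, differs from that of miR-17-5p by A4G. miR-92a-3p carries the unrelated seed AUUGCAC. The sequences of miR-19b-3p and miR-92a-3p are also held whole by a second hairpin each on the minus strand of chromosome X, MIR19B2 (133303701 to 133303796) and MIR92A2 (133303568 to 133303642), so reads of these mature miRNAs cannot be assigned to 1 locus. The other 10 arms were found in a single hairpin of the 9 searched, which were the 6 of the cluster, these paralogous hairpins and MIR106A.

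The values are the authors' means of normalized read counts over the 3 libraries of a group, with no value per library beside them. The tables with and without LPS were normalized separately and share no library. Where a mean was low, the reads of each library could be worked out from it, which also gave the size factor of each library, the number its reads were divided by. Size factors ran from 0.665 to 1.72, and the deepest library of a group exceeded the shallowest by 1.41 times in WT, 1.84 in KO, 2.58 in WT with LPS and 1.60 in KO with LPS. Errors given below as counting intervals are 95% intervals from these factors and cover the counting of reads only. Mature miRNAs with means above 5 up to 20 (up to 10 in WT with LPS, where no higher mean was recovered) varied more than counting allows between libraries of a group, with variances 1.44 to 2.85 times the counting variance over 15 to 39 miRNAs a group. If the members varied by the same relative amount, intervals of a log2 ratio would be widened to at least 0.72 on either side without LPS and 0.74 with LPS. An interval that includes this spread is called the wide interval here. Of 6 myeloid marker miRNAs all were present in every group, with summed levels of 2020 in WT, 2740 in KO, 2280 in WT with LPS and 2895 in KO with LPS. Without LPS, miR-155-5p (1358 in WT and 1998 in KO), miR-142-5p (323 and 394) and miR-146a-5p (66.9 and 100.1) were higher in KO, while miR-223-3p went from 93.8 in WT to 74.3 in KO, miR-223-5p from 80.1 to 77.5 and miR-142-3p from 97.9 to 95.2. With LPS, miR-155-5p (1360.2 and 1783), miR-142-5p (254 and 372), miR-146a-5p (468 and 555) and miR-142-3p (75.1 and 80.2) were higher in KO, and miR-223-3p (60.4 and 58.0) and miR-223-5p (62.4 and 46.9) lower. Of 7 markers of other cell types only miR-200c-3p was listed, at 1.19 or less in WT and at 0 in KO. The part of these marker levels in the results was not tested.

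miR-92a-3p had the highest counts of the 12 arms in all 4 groups. The arms are 22 or 23 bases long, and how well each sequence was captured in the libraries was not tested, so the order of levels is one of counts. Without LPS, miR-92a-3p had a mean of 9989.8 normalized counts in WT and 12461 in KO, and with LPS 8598 and 11100.5. It ranked as number 3 among mature entries in WT, in KO and in KO with LPS, and as number 4 in WT with LPS. It made up 75.4% of the summed level of the 12 arms in WT, 78.9% in KO, 76.9% in WT with LPS and 82.6% in KO with LPS. The next 3 arms were miR-20a-5p with 1361 in WT, miR-17-5p with 1005 and miR-19b-3p with 497. miR-18a-5p (107), miR-92a-1-5p (105) and miR-19a-3p (102) followed in WT, and the counting intervals of these 3 levels overlapped. The remaining arms were miR-18a-3p at 57.4, miR-17-3p at 12.4, miR-20a-3p at 8.57, miR-19b-1-5p at 0.755 and miR-19a-5p at 0.657.

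**Figure D1:**
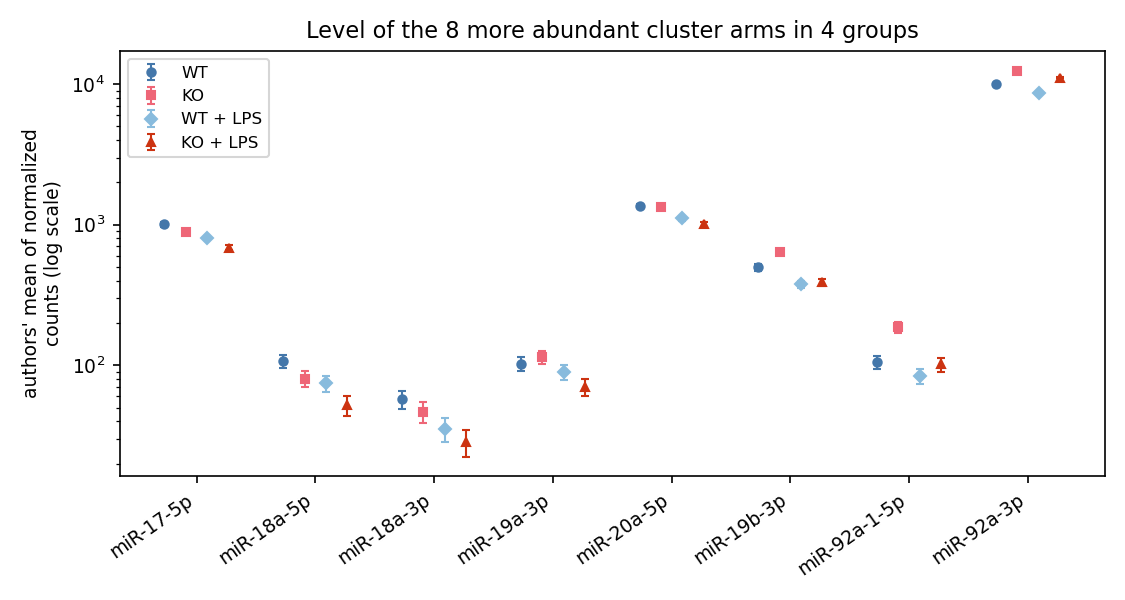
Authors' mean of normalized counts (log axis) of the 8 arms with means of at least 20 in every group, in genomic order, with bars for the 95% counting interval. miR-92a-3p lies between 8598 and 12461 in the 4 groups and miR-18a-3p between 28.6 and 57.4, and levels with and without LPS come from tables normalized separately.

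Together the 12 arms held 12.9% of the summed level of all mature miRNAs in WT, 13.9% in KO, 12.0% in WT with LPS and 12.2% in KO with LPS. These shares lean on the arms of miR-3607, which alone held 43.4%, 35.8%, 42.0% and 38.5% of that sum. Without miR-3607, the share of the cluster was lower in KO than in WT, 21.7% against 22.8% without LPS and 19.8% against 20.7% with LPS, so the sign of the difference depended on that 1 hairpin. The 11 arms other than miR-92a-3p held 3.18% in WT and 2.94% in KO, and 2.78% and 2.13% with LPS.

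Set against WT without LPS, the arms of KO cells differed in both directions by more than counting error, though not by more than the spread between libraries except for miR-92a-1-5p. miR-92a-3p, miR-92a-1-5p and miR-19b-3p, arms of the last 2 hairpins of the cluster (the first and the last named also of copies on chromosome X), were higher in KO, and miR-17-5p and miR-18a-5p, arms of the first 2 hairpins, were lower, all beyond counting error. miR-20a-5p differed by 1% and miR-19a-3p by 12%, both within counting error. Of the 11 arms with a mean above 0 in both genotypes, 6 were higher in KO and 5 lower, where 56.3% of all 206 mature miRNAs with both means above 0 were higher. The counting interval lay above 0 for 3 arms, against 26.2% of mature miRNAs, and below 0 for 2 arms, against 9.71%. None of the 11 arms differed 2-fold, which 23.3% of mature miRNAs did. The median log2 ratio was 0.09 for the arms and 0.10 for all 206.

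With LPS the pattern leaned lower. Of 11 arms, 4 were higher in KO and 7 lower, where 55.3% of 190 mature miRNAs were higher. The counting interval lay above 0 for 2 arms, miR-92a-3p and miR-92a-1-5p, against 29.5% of mature miRNAs, and below 0 for 4, miR-17-5p, miR-18a-5p, miR-19a-3p and miR-20a-5p, against 11.1%. A single arm, miR-19b-1-5p with 4 reads in WT and 6 in KO, was past 2-fold, as were 18.9% of mature miRNAs, and its log2 ratio of 1.46 became 0.82 with 1 added to each mean and 0.87 without either WT library that had no read. The median log2 ratio of the arms was -0.14, beside 0.10 for all 190.

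These ratios carry the authors' scaling, which leaves the mature miRNAs higher in KO on the whole. Equalizing the mature sums would lower every log2 ratio by 0.15 without LPS and by 0.24 with LPS. Relative to that shift, miR-20a-5p without LPS would stand at -0.16 with its counting interval below 0, miR-19b-3p with LPS at -0.20, also below 0, and miR-92a-1-5p with LPS at 0.04, no longer beyond counting error. miR-18a-3p would stand at -0.45 without LPS and -0.54 with LPS, then below 0 beyond counting error in both tables. With the wide interval, 1 ratio of the 22 excluded 0, that of miR-92a-1-5p without LPS, and with equal mature sums that interval held 0 too (-0.061 to 1.43). Since miR-3607 holds so much of the mature sum, sums were also equalized without it, which would lower every log2 ratio by 0.33 in both tables. Then miR-92a-3p without LPS would stand at -0.0084, miR-19b-3p without LPS at 0.043 and miR-92a-1-5p with LPS at -0.046, all within counting error. In these cases the higher level in KO depended on the scaling. miR-92a-1-5p without LPS would stand at 0.50 and miR-92a-3p with LPS at 0.041, both still above 0 beyond counting error. Both of these scalings lower every ratio, so arms already lower in KO, such as miR-17-5p and miR-18a-5p, could not change sign.

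**Figure D2:**
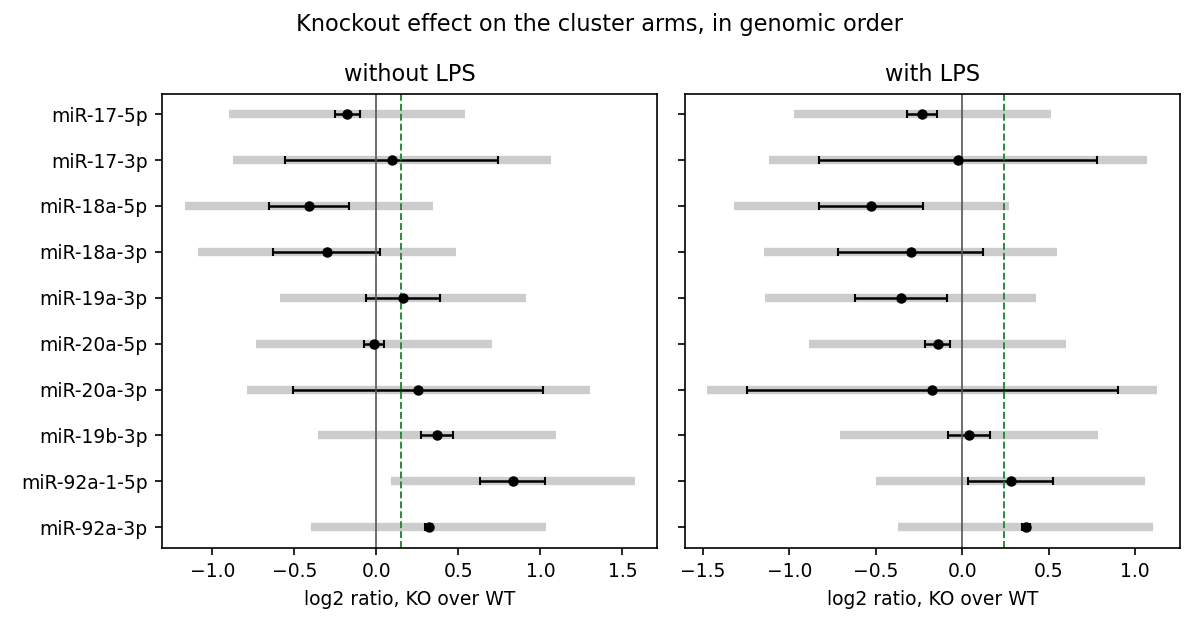
Log2 ratio of KO over WT for the 10 arms with KO means above 4 in both tables, in genomic order, without LPS (left) and with LPS (right). Black bars are 95% counting intervals, grey bars add the spread between libraries, and the dashed line is the shift of the summed mature miRNAs (0.15 and 0.24); ratios run from -0.41 for miR-18a-5p to 0.83 for miR-92a-1-5p without LPS.

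miR-17-5p and miR-20a-5p, guides of the AAAGUGC seed that are known to repress cell cycle inhibitors such as CDKN1A, were the most abundant after miR-92a-3p. The mean of miR-17-5p was 1005 in WT and 888 in KO, and with LPS 806 and 686. It was lower in KO by a log2 ratio of -0.18 (counting interval -0.25 to -0.10) without LPS and of -0.23 (-0.32 to -0.14) with LPS. The 2 ratios differed by -0.05 (-0.17 to 0.06), within counting error, and by -0.15 with equal mature sums in both tables, beyond it. With sums equalized without miR-3607 the difference was -0.052, and with ratios centred on the median of the mature miRNAs -0.034, both within counting error. The mean of miR-20a-5p was 1361 in WT and 1347 in KO, and with LPS 1109 and 1004. Its log2 ratio was -0.01 (-0.08 to 0.05) without LPS and -0.14 (-0.21 to -0.07) with LPS, a difference of -0.13 (-0.22 to -0.03). As a share of the mature sum, in which a factor common to a column cancels, miR-17-5p stood at 0.981% in WT, 0.864% in WT with LPS, 0.783% in KO and 0.622% in KO with LPS. miR-20a-5p stood at 1.33%, 1.19%, 1.19% and 0.910% in the same order. The level of miR-17-5p was 0.738 times that of miR-20a-5p in WT and 0.659 times in KO, a log2 change of -0.16 (-0.26 to -0.07), and with LPS 0.727 and 0.683 times, a change of -0.09 (-0.20 to 0.02).

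miR-18a-5p and miR-18a-3p come from the second hairpin, whose cropping by Drosha is known to need the RNA-binding protein hnRNP A1. The mean of miR-18a-5p was 107 in WT and 80.5 in KO, and with LPS 74.7 and 51.9. Its log2 ratio was the lowest of the 11 arms in both tables, -0.41 (-0.65 to -0.17) without LPS and -0.53 (-0.83 to -0.23) with LPS. The passenger arm miR-18a-3p had means of 57.4 in WT and 46.6 in KO, and 35.2 and 28.6 with LPS. It was lower in KO by like amounts, -0.30 in both tables, with counting intervals that held 0 (-0.63 to 0.02 and -0.72 to 0.12). The 5p arm was 1.86 times the 3p arm in WT, 1.73 in KO, 2.12 in WT with LPS and 1.81 in KO with LPS, with no change between genotypes beyond counting error. Against its neighbour miR-17-5p, miR-18a-5p was lower in KO by -0.23 (-0.49 to 0.02) without LPS and -0.29 (-0.61 to 0.02) with LPS.

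miR-19a-3p and miR-19b-3p are the guides with the GUGCAAA seed, and miR-19a-3p has been described as a regulator of ALOX5. The mean of miR-19a-3p was 102 in WT and 114 in KO, and with LPS 89.8 and 70.2. Its log2 ratio was 0.16 (-0.06 to 0.38) without LPS and -0.36 (-0.62 to -0.09) with LPS, a difference of -0.52 (-0.86 to -0.17). The mean of miR-19b-3p was 497 in WT and 642 in KO, and with LPS 377 and 388. Its log2 ratio was 0.37 (0.27 to 0.47) without LPS and 0.04 (-0.08 to 0.16) with LPS, a difference of -0.33 (-0.48 to -0.17). Both guides thus stood lower relative to WT in the LPS table than in the other, by more than counting error. miR-19a-3p was 0.206 times miR-19b-3p in WT and 0.178 times in KO, a log2 change of -0.21 (-0.45 to 0.04), and with LPS 0.238 and 0.181 times, a change of -0.40 (-0.69 to -0.10).

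The MIR92A1 hairpin holds miR-92a-3p, which MIR92A2 holds too, and miR-92a-1-5p. Its sequence is shown with both arms in capitals because their ratio is compared.
MIR92A1: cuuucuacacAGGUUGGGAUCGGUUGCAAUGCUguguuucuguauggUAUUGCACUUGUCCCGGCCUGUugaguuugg
The guide miR-92a-3p, known for repressing the integrin subunit ITGA5 in blood vessels, was higher in KO by 0.32 (0.30 to 0.34) without LPS and 0.37 (0.34 to 0.39) with LPS, on the authors' scaling. The difference of 0.05 (0.02 to 0.08) took the opposite sign, -0.047, once mature sums were equalized in both tables. It kept its sign with sums equalized without miR-3607 (0.050) and with ratios centred on the median of the mature miRNAs (0.068). The passenger arm miR-92a-1-5p, found in this hairpin alone of the 9 searched, had means of 105 in WT and 187 in KO, and with LPS 83.6 and 102. It was 1.78-fold higher in KO without LPS, a log2 ratio of 0.83 (counting interval 0.63 to 1.03, wide interval 0.09 to 1.57), and 1.22-fold higher with LPS, 0.28 (0.04 to 0.53). The difference was -0.55 (-0.87 to -0.23). Per 1 count of miR-92a-3p there were 0.0105 of miR-92a-1-5p in WT and 0.0150 in KO, a log2 change of 0.51 (0.31 to 0.71), while with LPS the values were 0.00972 and 0.00915, a change of -0.09 (-0.33 to 0.16).

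The ratio of the last guide along the cluster to the first was higher in KO by more than counting error, with the reads of MIR92A2 included. miR-92a-3p was 9.94 times miR-17-5p in WT and 14.0 times in KO, a log2 change of 0.50 (0.42 to 0.58). With LPS it was 10.7 and 16.2 times, a change of 0.60 (0.51 to 0.69). A factor common to a whole column cancels in such a ratio, though the size factors of its 3 libraries against each other do not. The ratio differed in the same direction in both tables, which share no library, and its wide interval held 0 in both (-0.52 to 1.51 and -0.45 to 1.65). miR-19b-3p and miR-92a-3p, each with a copy on chromosome X, kept their ratio within counting error without LPS, 0.0497 in WT and 0.0515 in KO, with a log2 change of 0.05 (-0.05 to 0.15). With LPS the ratio was 0.0439 in WT and 0.0350 in KO, a change of -0.33 (-0.45 to -0.21). Of the 6 pairs, 3 changed beyond the counting interval in each table, and 1, miR-92a-3p to miR-17-5p, did so in both. With the wide interval, which assumes that the library spreads of both arms are independent, all 12 changes held 0.

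**Figure D3:**
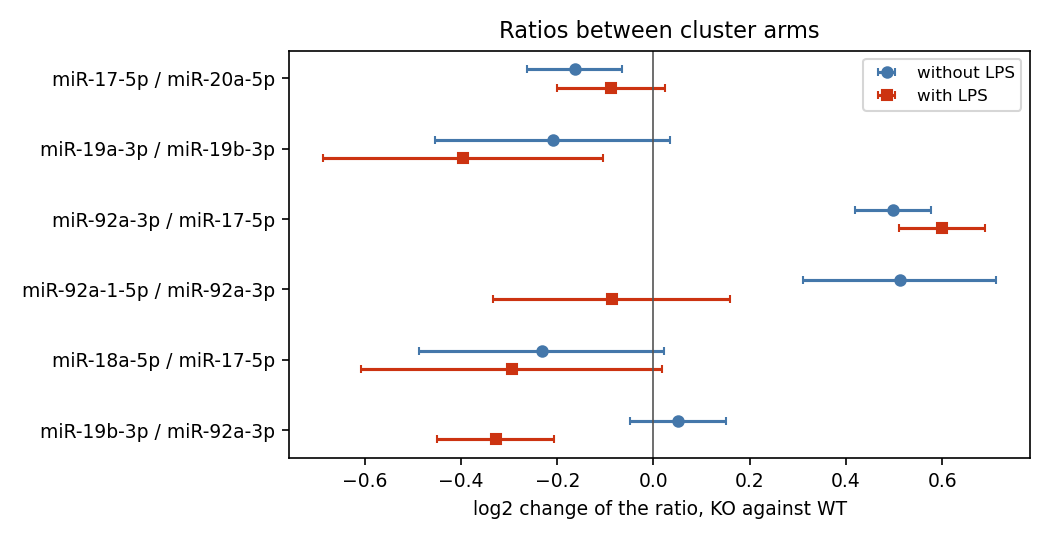
Log2 change between genotypes in the ratio of 2 arms, with 95% counting intervals, without LPS (circles) and with LPS (squares). The ratio of miR-92a-3p to miR-17-5p lies at 0.50 and 0.60, and that of miR-92a-1-5p to miR-92a-3p at 0.51 and -0.09.

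Across the LPS and no-LPS tables, the log2 ratio of KO over WT was lower with LPS for 8 of 11 arms, where it was lower for 55.1% of the 176 mature miRNAs with values in all 4 groups. The median difference was -0.12 for the arms and -0.053 for the 176. The counting interval of the difference lay below 0 for 4 arms, miR-19a-3p, miR-20a-5p, miR-19b-3p and miR-92a-1-5p, against 17% of mature miRNAs, and above 0 for 1, miR-92a-3p, against 11.4%. With the wide interval it held 0 for all 11.

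For 4 passenger arms the reads of each library could be recovered, here given from the library with the highest size factor to that with the lowest. miR-17-3p had 15, 13 and 11 reads in WT, and 19, 15 and 7 in KO. Divided by the size factors this was 12.4 ± 0.400 (SD, n = 3) in WT and 13.3 ± 3.22 (SD, n = 3) in KO, and the groups overlapped (exact permutation test, two-sided, p = 0.7). With LPS it had 20, 12 and 2 reads in WT and 17, 0 and 10 in KO, or 8.61 ± 4.86 and 8.46 ± 7.34 (SD, n = 3; exact permutation test, p = 1). A library without any read thus stood beside 2 with 17 and 10 reads in the KO group with LPS. Without that library the log2 ratio of miR-17-3p with LPS went from -0.03 to 0.56, and without the WT library of 2 reads to -0.43. miR-20a-3p had 9, 5 and 12 reads in WT and 9, 20 and 2 in KO, or 8.57 ± 4.49 and 10.2 ± 9.68 (SD, n = 3; exact permutation test, p = 0.9). The KO library with 20 reads set that mean, and without it the log2 ratio went from 0.25 to -0.85. With LPS the reads were 10, 7 and 2 in WT and 2, 7 and 3 in KO, 5.12 ± 1.86 and 4.54 ± 3.50 (SD, n = 3; exact permutation test, p = 0.9). With 3 libraries against 3, this test cannot give a p below 0.1.

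miR-19b-1-5p and miR-19a-5p, passenger arms that share the seed GUUUUGC, sat at the limit of detection. miR-19b-1-5p had 2 reads in 1 WT library and 2 in 1 KO library without LPS. With LPS it had 4 reads in 1 WT library and 2 in each of the 3 KO libraries, or 0.775 ± 1.34 and 2.13 ± 0.516 (SD, n = 3), and the groups overlapped (exact permutation test, two-sided, p = 0.2). miR-19a-5p had 2 reads in 1 WT library without LPS and 2 in 1 WT library with LPS, and was listed at 0 in KO in both tables.

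**Figure D4:**
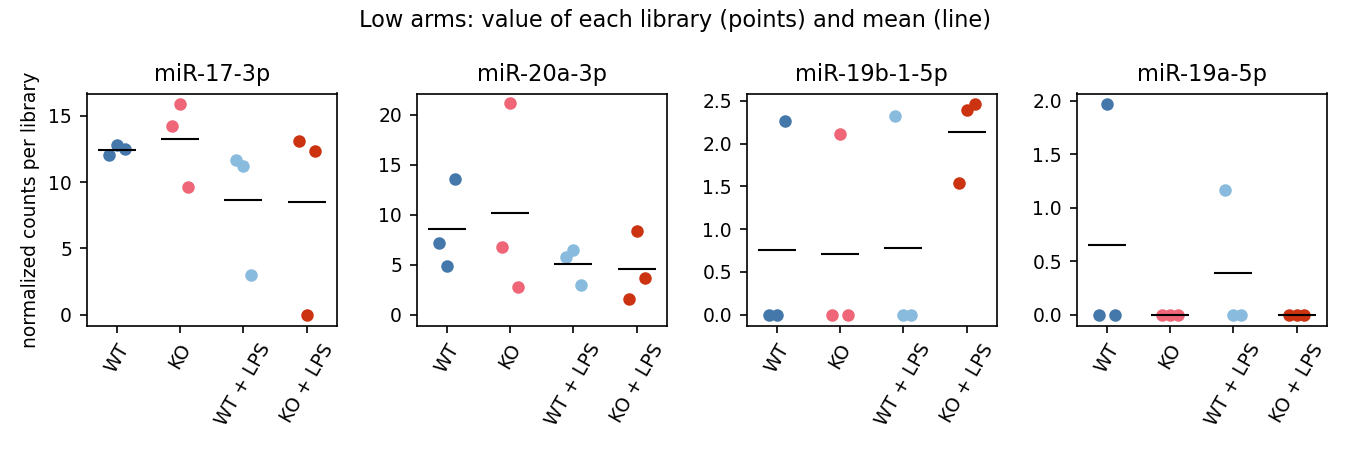
Normalized counts of each library (points) and their mean (line) for the 4 arms whose reads could be recovered, by group. The WT and KO points of miR-17-3p, miR-20a-3p and miR-19b-1-5p overlap in both tables, and both KO groups of miR-19a-5p lie at 0.

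The tables also list the hairpins, and the libraries were size selected so that precursors as well as mature miRNAs were kept. The part of a hairpin entry beyond its arms differed between hairpins. It was 17.2% of mir-17, 43.7% of mir-18a, 75.2% of mir-19a and 75.6% of mir-20a in WT. For mir-20a this remainder was 4247 in WT and 5997 in KO, a log2 ratio of 0.50 (0.46 to 0.53), and with LPS 2827 and 3936, or 0.48 (0.44 to 0.52), while the summed arms stood at -0.01 and -0.14. For mir-18a it was 128 in WT and 79.2 in KO, a ratio of -0.69 (-0.92 to -0.45), and with LPS 82.3 and 29.9, or -1.46 (-1.82 to -1.10), against -0.37 and -0.45 for the arms. For mir-19a it was 313 and 222, a ratio of -0.49 (-0.64 to -0.35), and with LPS 172 and 102, or -0.76 (-0.97 to -0.55), where the arms stood at 0.15 and -0.36. For mir-17 it was 212 and 226 without LPS, 0.09 (-0.06 to 0.25), and 137 and 115 with LPS, -0.25 (-0.46 to -0.04).

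The difference between remainder and arms lay beyond counting error for all 4 of these hairpins without LPS and for 3 with LPS. It was 0.27 (0.09 to 0.44) and -0.02 (-0.25 to 0.20) for mir-17. It lay upwards for mir-20a by 0.51 (0.44 to 0.58) and 0.62 (0.54 to 0.70), and downwards for mir-18a by -0.31 (-0.62 to -0.01) and -1.01 (-1.44 to -0.58) and for mir-19a by -0.65 (-0.91 to -0.38) and -0.40 (-0.74 to -0.06). Of the 18 hairpin entries named without a copy number and with a remainder and arms above 0 in both genotypes, these 4 included, 50% lay beyond counting error in this way without LPS and 38.9% of 18 with LPS. mir-19b-1, which lies 56 bases after mir-20a, was far above its arms too, at 4979 in WT and 6873 in KO, and 3326 and 4387 with LPS. Its log2 ratios were 0.46 and 0.40, near those of the mir-20a remainder. For mir-92a-1, if 50% of the miR-92a-3p counts belonged to it, 758 in WT and 776 in KO lay beyond its arms, a log2 ratio of 0.03, and 523 and 514 with LPS, or -0.02, while the whole entry stood at 0.30 and 0.33. With the wide interval, 1 of the 8 remainders of mir-17, mir-18a, mir-19a and mir-20a differed between genotypes, that of mir-18a with LPS (-2.28 to -0.64), and no difference between remainder and arms excluded 0. Whether the same reads were counted to both hairpins was not tested. The chromosome X entry mir-19b-2 stood at 50.0% of the level of miR-19b-3p in WT and 49.7% to 50.0% in the other groups, and mir-92a-2 at 47.5% to 48.3% of miR-92a-3p, so the share of the second locus cannot be read from these entries.

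**Figure D5:**
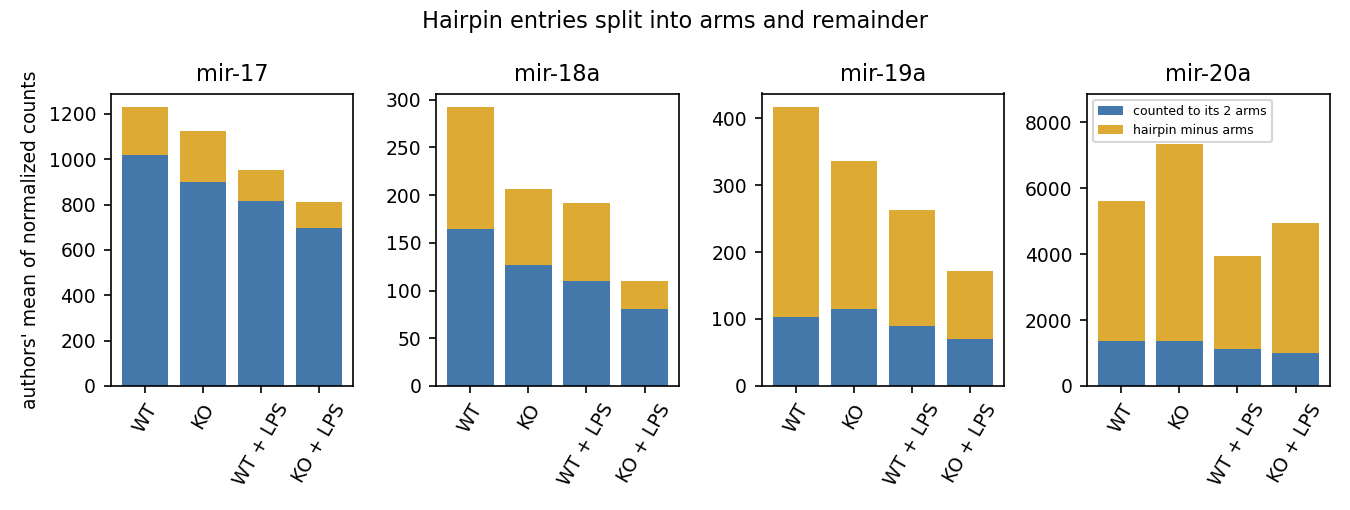
Level of 4 hairpin entries (authors' mean of normalized counts, bars from 0, a separate axis each), split into the sum of both arms and the remainder, in the 4 groups. The remainder of mir-20a is higher in KO (5997 against 4247 without LPS) and those of mir-18a and mir-19a lower (79.2 against 128, and 222 against 313).

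Of 10 miRNAs of other loci that share a seed with a cluster guide, 7 were listed without LPS and 5 with LPS. Listed without LPS only, and near the floor, were miR-20b-5p (0.267 in WT and 0 in KO) and miR-32-5p (1.07 in WT and 0 in KO). The sequences of the 5 with values in both tables are shown with the seed in capitals.
miR-93-5p: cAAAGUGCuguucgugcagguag
miR-106a-5p: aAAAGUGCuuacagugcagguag
miR-106b-5p: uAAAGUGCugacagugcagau
miR-25-3p: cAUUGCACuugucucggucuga
miR-92b-3p: uAUUGCACucgucccggccucc
miR-106a-5p differs from miR-17-5p at its first base alone, C1A with the miR-17-5p base first. It had means of 4.69 in WT and 5.60 in KO without LPS. How many reads of either were counted to the other cannot be seen from these means. All 5 were higher in KO without LPS, with the counting interval above 0 for 2, and with LPS 2 were higher, both beyond counting error, beside the shares of all mature miRNAs given above (56.3% higher and 26.2% with an interval above 0 without LPS, 55.3% and 29.5% with LPS). With equal mature sums miR-92b-3p without LPS would stand at -0.11 in place of 0.04, and miR-93-5p with LPS at 0.05 in place of 0.30, no longer beyond counting error. On the authors' scaling, the 2 beyond counting error were miR-93-5p and miR-25-3p, both from the paralogous miR-106b-25 cluster. The log2 ratios of miR-93-5p were 0.46 (0.37 to 0.56) without LPS and 0.30 (0.19 to 0.41) with LPS. Those of miR-25-3p were 0.76 (0.65 to 0.87) and 0.39 (0.26 to 0.53). With the wide interval the ratio of miR-25-3p without LPS excluded 0 (0.03 to 1.49) and the other 3 of these 4 did not, and with equal mature sums the interval of miR-25-3p held 0 too (-0.11 to 1.34).

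Summed over a seed, the AAAGUGC miRNAs were at 2931 in WT and 3011 in KO, a log2 ratio of 0.039 (-0.0039 to 0.082), and with LPS at 2342 and 2209, -0.08 (-0.13 to -0.04). The 2 guides of the cluster gave 80.7% of that sum in WT and 74.2% in KO, and 81.7% and 76.5% with LPS. The AUUGCAC sum was 10365 in WT and 13074 in KO, 0.33 (0.31 to 0.36), and with LPS 8899 and 11487, 0.37 (0.34 to 0.39), with miR-92a-3p giving 95.3% to 96.6% of it. The GUGCAAA sum, made of miR-19a-3p and miR-19b-3p, was 599 in WT and 756 in KO, 0.34 (0.25 to 0.43), and with LPS 467 and 458, -0.03 (-0.14 to 0.08). With equal mature sums the AAAGUGC sum without LPS would stand at -0.11 (-0.15 to -0.07) and the GUGCAAA sum with LPS at -0.27 (-0.38 to -0.16), both then below 0 beyond counting error. With the wide interval the ratios of these 3 sums held 0 in both tables.

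Outside the cluster, the 3 mature miRNAs nearest to the pair of cluster medians were miR-221-3p, miR-26b-5p and miR-664b-5p, of 54 with means of at least 50 in all 4 groups. Their log2 ratios without and with LPS were 0.13 and -0.15 for miR-221-3p, 0.10 and -0.20 for miR-26b-5p, and 0.12 and -0.21 for miR-664b-5p. In these bulk libraries, fewer cells holding a miRNA and less of it per cell cannot be told apart.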

How the data were processed

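Small RNA libraries were processed by the authors with omiRas against hg19, and for the aligner, mismatches, multi-mapping reads and scaling the sources used here give nothing. The deposited values are a signal, the authors' mean of normalized counts per genotype. Other deposited columns hold the authors' own fold changes, p-values and FDR, which were not used. A test of single libraries could not be fitted to means, so log2 ratios were taken with no pseudocount and with 95% counting intervals (delta method). Reads per library were recovered from means of at most 20 where exactly 1 solution lay within the 6 printed digits: all means of at most 10, and of those above 10, 65 of 65 in WT, 59 of 60 in KO, 0 of 59 in WT with LPS and 50 of 50 in KO with LPS. The wide interval adds the recovered library spread. It was added after the data were seen, as were the ratio of the miR-18a arms and the split of hairpin entries. Recovery and counting intervals were tried on data simulated with counting error alone. That simulation left out the spread between libraries, so how the intervals hold with that spread was not tested. The tables show no molecular identifiers, so intervals cover counting only. The study names independent experiments, and the labels only replicates. Members and lists were chosen with earlier results of these data known. Named were every arm of the rule, the miRNAs sharing a seed, the hairpin entries, and the 3 miRNAs nearest to the member medians by Euclidean distance. Sequences came from RefSeq (GRCh38.p14), and annotation from GENCODE lifted to GRCh37. Tools were Python 3.11.15 with numpy 2.4.6, scipy 1.17.1, pandas 2.3.3 and, for plots, matplotlib 3.10.9.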

Additional observations from a re-analysis of the deposited data

How the results depend on the processing

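Scaling moved the list summaries. Every alternative lowered all log2 ratios of KO over WT, so arms already below 0 could not change sign. With sums equal over all noncoding RNAs, sums equal over mature miRNAs, or ratios centred on the median of the mature miRNAs with means of at least 10 in both genotypes (106 without LPS and 103 with LPS), the median log2 ratio of the arms without LPS went from 0.09 to -0.081, -0.053 and -0.080, and the count of arms with an interval below 0 from 2 to 4 under each. With LPS the median went from -0.14 to -0.39 with equal mature sums and -0.30 when centred, and the count with an interval above 0 from 2 to 1 under each of the 3 scalings. The count below 0 with LPS went from 4 to 6 with equal mature sums and to 5 when centred. With equal mature sums the arms with a difference between tables below 0 went from 4 to 6, no arm had one above 0, where 1 had, and that of miR-92a-3p became -0.047. When centred, or with sums equal without miR-3607, these counts stayed at 4 and 1. With sums equal over mature miRNAs without miR-3607, chosen after the data were seen, the median was -0.23 without and -0.47 with LPS, 2 arms were higher in KO in each table, 1 had an interval above 0 in each, and 4 without and 6 with LPS had one below. miR-92a-3p without LPS then stood at -0.0084 and miR-92a-1-5p with LPS at -0.046, against 0.32 and 0.28. With an error that adds the spread between libraries, a choice made after the data were seen, the counts above and below 0 were 1 and 0 without LPS and 0 and 0 with LPS, and all 4 were 0 when any of the first 3 scalings was applied as well. With that without miR-3607 they were 0 and 0, and 0 and 1 (miR-18a-5p). The difference in the share of the cluster, KO minus WT, was 0.994 and 0.186 percentage points without and with LPS. Without miR-3607 it was -1.14 and -0.867, and as a share of all noncoding RNAs, where the cluster held 0.116% to 0.132%, it was 0.00691 and 0.0167. Pseudocounts of 1 and 10 left all 22 ratios on the same side of 0 and of their intervals, though miR-19b-1-5p with LPS, at 1.46, fell under 2-fold with both (0.82 and 0.17). Leaving out 1 library, where reads were recovered, gave log2 ratios from -0.85 to 0.75 for miR-20a-3p and -0.06 to 0.28 for miR-17-3p without LPS, and -0.97 to 0.24 and -0.48 to 0.56 with LPS. For miR-19b-1-5p they ran from -0.68 to 0.49 and from 0.87 to 1.65, over 4 and 5 of the 6 omissions, since the others left a genotype at 0 and no ratio. No paired analysis was possible because the columns are means that carry no replicate number. Members above a mean of 20 have no recovered library values, so no library could be left out for them.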
